A study of Drosophila montana and Drosophila virilis with 24 samples.

Results

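The genes eyeless (ey), sine oculis (so) and atonal (ato) encode transcription factors that specify the insect eye, and their transcripts were followed in whole females of Drosophila montana and D. virilis that had met several kinds of cold. They are 3 of the 218 genes named on a custom expression array and hold 9 of its 925 probe pairs. Members were taken by exact match of the gene name inside the probe name, and both orientations of each probed fragment were on the array. The probes of each member were selected on their measured signal: of each pair, the orientation with the higher mean over all 24 arrays was used. That choice used signal levels without regard to the groups, and the signal of the chosen orientation is given below as a description. The genes were grouped with results of these data already known, among them the higher levels of ey and so after cold acclimation, so those changes are no independent evidence for the choice.

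In D. melanogaster, where these genes were worked out, ey encodes a Pax6 protein with a paired domain and a homeodomain, and it stands near the top of the network that commits cells to an eye fate. It activates so, which encodes a Six-family homeodomain protein that binds DNA together with the co-activator Eyes absent. Further down, ato encodes a basic helix-loop-helix proneural factor that selects the founder photoreceptor of each facet of the compound eye, and it also specifies stretch-sensing chordotonal organs. All are best known from the developing eye disc of the larva. In adult D. melanogaster ey is also active in the brain, for example in the mushroom bodies, the centre of olfactory learning.

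Every group comprised 3 pools of 10 females aged 20 days, with 1 array per pool. The light cycle was 22 h on and 2 h off for all flies, and collection fell between 5 and 6 h after lights on. Acclimated flies of both species spent 14 days under control conditions followed by 6 days at 5°C. Hardened flies of both species were kept at 0°C for 1 h. Recovering flies, of D. montana alone, were held at -6°C for 16 h and collected 15 min or 1 h after the end of the cold. Control flies of each species stayed at 19°C throughout. The labels name no strain and give mature females and whole bodies for all groups, so a change in the number of cells of a type and a change in RNA per cell cannot be told apart. Of the marker lists used to check the tissue, 12 of 14 photoreceptor gene names, 5 of 11 neuronal gene names, the muscle myosin gene Mhc and the alcohol dehydrogenase gene Adh, used for the fat body, were on the array. None of the glial (0 of 1) or ovarian (0 of 7) markers was, so those tissues have no check here. The photoreceptor and neuronal lists give some genes under 2 names, such as ninaE and Rh1, so they hold fewer genes than names.

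Levels are given as a percentage of the 75th percentile of the array's own probe signals of both orientations. On that scale 100% is the signal of the probe at that percentile, and bright genes reach many times it. This mark lay between 412.9 and 882.8 scanner units over the 24 arrays, and on the 6 recovery arrays it reached 678.2 at most, while the lowest of the other 18 had 658.0. The share of spots well above background was 72.2% on the lowest array and 83.1% on the highest. The 24 arrays sat on 3 slides, each with 1 array of every group. Levels are compared between groups of 1 species only, since probes named for D. montana may bind D. virilis transcripts unequally. Precision is limited by how few arrays each group has. Changes are differences of log2 levels with the standard error (SE) of a limma fit over all genes, and a change was called when its p-value, adjusted by the Benjamini-Hochberg method over all genes of the comparison, was under 0.05.

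The 3 ey pairs lie on the same fragment, and their brighter orientation exceeded the other by 3.56, 3.77 and 3.25 log2 units. The brighter ey probes were well above background on 14, 13 and 11 of the 15 D. montana arrays, with all misses on recovery arrays, and on all 9 D. virilis arrays. The 2 so pairs had gaps of 5.25 and 5.73 log2 units and passed the background criterion on all 24 arrays. Of the 4 ato pairs, ato_1FR lies on a first fragment and ato_2_0b, ato_2_1b and ato_2_2b on a second, with gaps of 3.69, 3.00, 1.54 and 2.21 log2 units. In D. montana ato_2_1b was too dim to be kept and the other 3 were used. In D. virilis only ato_2_0b was kept, because ato_1FR and ato_2_2b were well above background on 2 and 1 of 9 arrays. In scanner units, ey ran from 7.43 on a 15-min recovery array to 53.9 on an acclimated array of D. montana. The probe letters are not in the files used here, so which positions of the transcripts they match cannot be stated.

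The first comparison, in D. montana, asked how days of mild cold changed the members. Eyeless was about 3 times as abundant in acclimated flies as in controls, so was more abundant by a smaller factor, and ato did not pass. The ey level was 7.94%, 6.49% and 6.16% on the acclimated arrays, against 2.03%, 1.98% and 2.29% on the control arrays. The groups did not overlap, and even the lowest acclimated value stood well clear of the highest control. The mean was 6.86 ± 0.95% in acclimated and 2.10 ± 0.17% in control flies (SD, n = 3 each). The change was 1.70 ± 0.12 log2 units, or 3.25-fold (adjusted p = 1.99e-08), the third highest rise among the 213 genes measured in this species. Within slides 1, 2 and 3 it was 1.97, 1.50 and 1.64. The 3 probes of ey agreed, with changes of 1.66, 1.63 and 1.82, and each of them was well above background on all 6 arrays.

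For so, acclimated flies had 15.7%, 20.9% and 20.0%, against 11.3%, 11.1% and 11.9% in control flies. The acclimated arrays again lay above all controls but spread more among themselves, with replicate 1 the lowest. The change was 0.71 ± 0.14, or 1.64-fold (adjusted p = 0.00177), and 0.48, 0.81 and 0.85 within the slides. Its probes rose by 0.74 and 0.68. For ato, acclimated flies had 4.18%, 4.88% and 5.46% and control flies 3.96%, 4.98% and 4.77%, ranges that overlapped. Its change was 0.08 ± 0.24 (95% interval -0.42 to 0.58, adjusted p = 0.852). Thus 2 of the 3 members were called higher, in a comparison where 9.86% of all genes were called higher and 26.8% were called in either direction. Of all 213 genes, 19.7% likewise had every acclimated array above the controls.

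**Figure D1:**
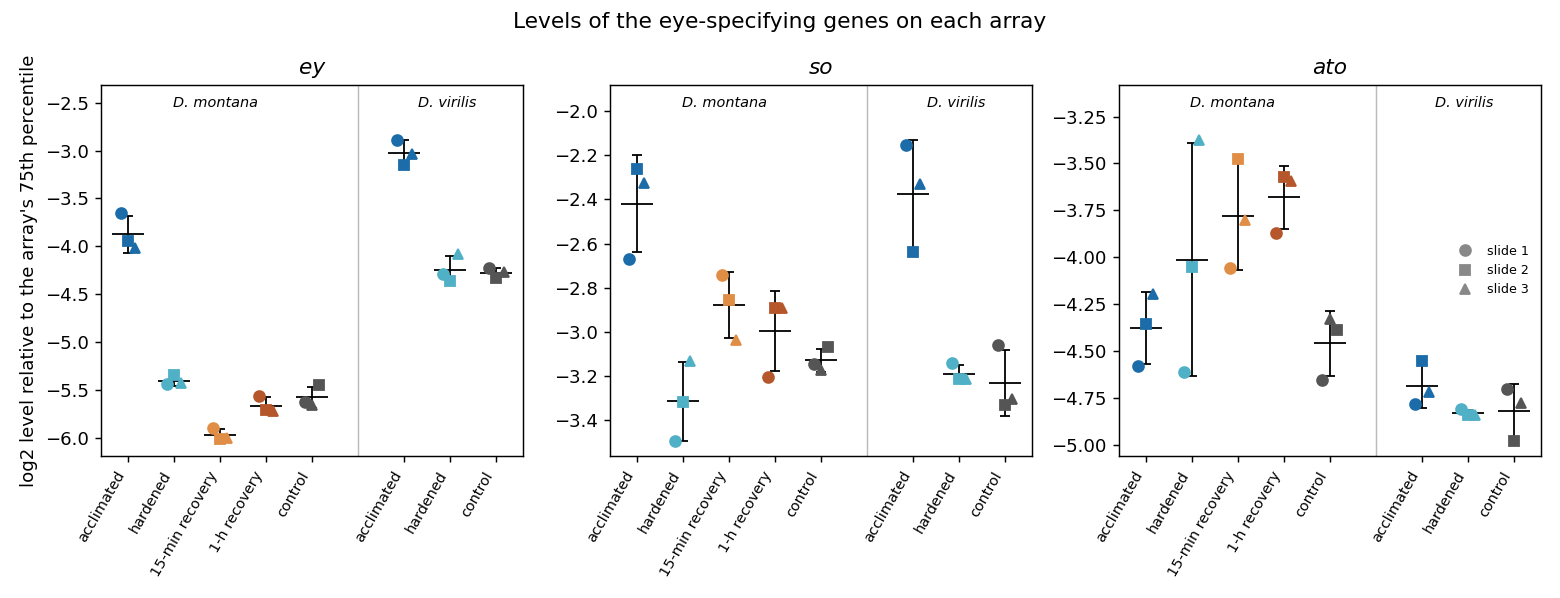
Levels of ey, so and ato on each of the 24 arrays, as log2 of the signal relative to the array's 75th percentile (y axis), by species and group (x axis). Each point is 1 array with its slide as the marker shape, and black bars give the group mean ± SD (n = 3). Acclimated arrays lie above all other arrays of their species for ey and so, while ato is highest in the recovery groups and on 1 hardened array of D. montana.

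In D. virilis, acclimated under the same regime, both ey and so rose too. The ey level was 13.5%, 11.3% and 12.2% on the acclimated arrays, against 5.34%, 4.96% and 5.19% on the controls, so that every acclimated value exceeded all control values by a wide margin. The change was 1.25 ± 0.10, or 2.38-fold (adjusted p = 5.08e-06), with 1.34, 1.19 and 1.23 within slides 1, 2 and 3. Its probes rose by 1.33, 1.19 and 1.24. The so level was 22.5%, 16.1% and 19.9% in acclimated flies, against 11.999%, 9.94% and 10.1% in controls, again without overlap. This was a change of 0.86 ± 0.12, or 1.81-fold (adjusted p = 0.000382), and 0.90, 0.69 and 0.97 within the slides. The so probes rose unequally, by 1.05 and 0.66. On its 1 usable probe ato had 3.64%, 4.26% and 3.79% in acclimated flies and 3.85%, 3.17% and 3.65% in controls, and the change of 0.13 ± 0.09 did not pass (95% interval -0.07 to 0.34, adjusted p = 0.281). Here, too, 2 of 3 members were called higher, against 14.7% of all 211 genes called higher and 39.3% called in either direction. Of all genes, 21.3% had every acclimated array above the controls.

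**Figure D2:**
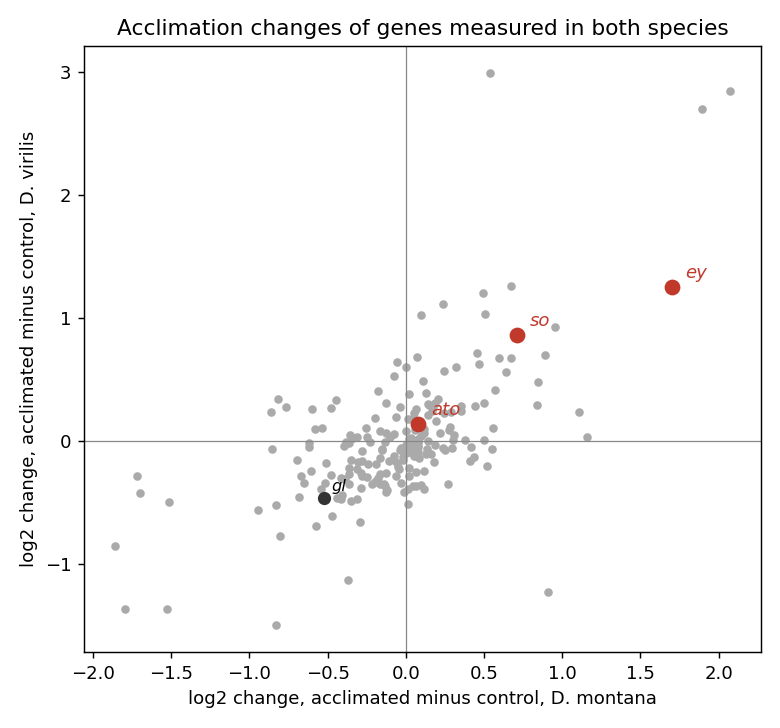
Acclimation changes of the 210 genes measured in both species, as log2 change of acclimated minus control flies in D. montana (x axis) and in D. virilis (y axis). Each point is 1 gene, with ey, so and ato in red and glass (gl) in black. Eyeless at 1.70 and 1.25 and so at 0.71 and 0.86 lie in the upper right, ato lies near 0 on both axes and gl below 0 on both.

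The response to acclimation was compared between the species as an interaction over 209 genes, of which 12.4% were called in either direction. Eyeless had the more positive change in D. montana, by 0.45 ± 0.15 log2 units (95% interval 0.14 to 0.76), which missed the threshold (adjusted p = 0.0532). A slide block gave an adjusted p of 0.0462. With the normexp background correction described below, the difference was 0.64 on all spots and -0.02 without 21 spots of high local background. In scanner units the ey probes read 36.8 to 43.9 in D. virilis controls and 13.8 to 17.1 in D. montana controls, so the signals differed in their distance from background, whose part in the difference was not tested. For so the difference was -0.15 ± 0.19 (95% interval -0.55 to 0.25, adjusted p = 0.791). For ato, which rests here on ato_2_0b alone, it was 0.12 ± 0.24 (adjusted p = 0.829). None of the 3 members therefore passed in limma (1 had an unadjusted p under 0.05, ey).

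Short, hard cold gave no called change in any member, and ato varied widely among the hardened D. montana arrays. After 1 h at 0°C, D. montana had ey levels of 2.31%, 2.46% and 2.32%, against 2.03%, 1.98% and 2.29% in controls. All hardened values lay above the controls, as for 13.6% of all genes, but by little, and the change of 0.17 ± 0.12 did not pass (adjusted p = 0.598). With scaling on the spike-in controls in place of the 75th percentile it was -0.01. For so the hardened arrays had 8.89%, 10.02% and 11.4%, which overlapped the controls, with a change of -0.19 ± 0.14 (adjusted p = 0.615). Hardened ato levels differed most among replicates of any group, at 4.08%, 6.02% and 9.65%, against 3.96%, 4.98% and 4.77% in controls. Replicate 3 gave the highest ato level of the 15 D. montana arrays, replicate 1 lay within the controls, and the change of 0.44 ± 0.24 (adjusted p = 0.598) was 0.12 without replicate 3. In D. virilis the changes on hardening were 0.03 ± 0.10 for ey (adjusted p = 0.919), 0.04 ± 0.12 for so (adjusted p = 0.916) and -0.01 ± 0.09 for ato (adjusted p = 0.963). In limma 0 of 3 members passed in either species, 0 of 3 with an unadjusted p under 0.05. Of all genes, 0.469% were called in D. montana and 0.474% in D. virilis. The species difference in the hardening response was 0.14 ± 0.15 for ey, -0.23 ± 0.19 for so and 0.14 ± 0.24 for ato, none called (adjusted p = 0.675, 0.591 and 0.828), where 0.478% of 209 genes were.

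Recovery from 16 h at -6°C was sampled in D. montana alone. At neither time did a member pass the test in limma, although ato lay higher on all recovery arrays than on any control. The ato level was 6.02%, 8.99% and 7.17% after 15 min, and 6.83%, 8.41% and 8.28% after 1 h, against 3.96%, 4.98% and 4.77% in controls. Both recovery groups were clear of the controls, as for 14.6% of all genes after 15 min and 15% after 1 h, and overlapped each other. The change was 0.68 ± 0.24 after 15 min (1.60-fold, adjusted p = 0.0859) and 0.78 ± 0.24 after 1 h (1.72-fold, adjusted p = 0.105). Within slides 1, 2 and 3 the changes were 0.60, 0.91 and 0.53 after 15 min and 0.78, 0.82 and 0.73 after 1 h. A slide block in the fit gave an adjusted p of 0.0310 after 15 min and 0.0182 after 1 h, and 30 and 14 genes then passed in place of 14 and 6.

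The probes of ato did not move alike in recovery. After 1 h, ato_1FR and ato_2_2b stood 1.12 and 1.14 log2 units above their controls, with no overlap of arrays, while ato_2_0b differed by 0.08 and overlapped. After 15 min the differences were 0.87, 0.83 and 0.34, all without overlap. The share of all probes without such overlap was not counted. Most opposite-orientation probes of ey, so and ato lay above all controls at both times too, nearly all of them below background. Lack of overlap by itself is therefore nothing particular to these ato probes. On hardening the differences were 0.60, 0.61 and 0.13, and all 3 probes overlapped the controls. Hardened replicate 3 carried much of the first 2. On ato_1FR it stood at -2.53 log2 units, with replicates 1 and 2 at -4.11 and -3.59, against -4.19, -3.78 and -4.06 in controls. The probes that moved together lie on different fragments, and ato_2_0b shares its fragment with ato_2_2b. The D. virilis values rest on ato_2_0b, and D. virilis has no usable value from the probes that moved most.

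**Figure D3:**
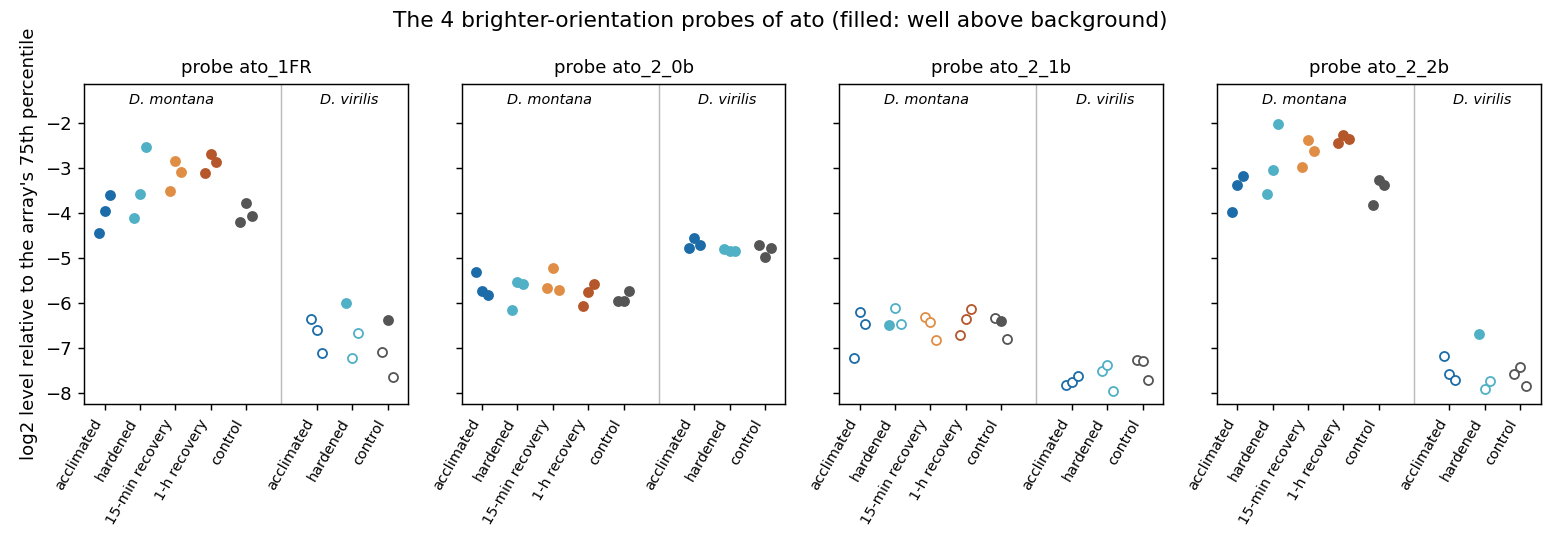
Levels of the 4 brighter-orientation ato probes on each array, as log2 of the signal relative to the array's 75th percentile (y axis), by species and group (x axis). Filled points were well above background and open points were not. In D. montana ato_1FR and ato_2_2b are higher in both recovery groups than in controls, by 0.83 to 1.14 log2 units, ato_2_0b by 0.34 after 15 min and 0.08 after 1 h, and in D. virilis ato_2_0b alone is above background throughout.

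Eyeless was lowest after 15 min of recovery, with 1.68%, 1.55% and 1.56%, against 2.03%, 1.98% and 2.29% in controls. All recovery arrays lay below all controls, as for 19.2% of all genes, but only 2, 1 and 1 of the 3 arrays were well above background at its 3 probes. The change of -0.39 ± 0.12 missed the threshold (adjusted p = 0.0648). A slide block gave an adjusted p of 0.0382, the changes within slides were -0.28, -0.56 and -0.34, and with normexp background correction the sign turned, to 1.03 on all spots and 0.31 without 21 spots of high local background. After 1 h the level was 2.12%, 1.91% and 1.90%, which overlapped the controls, for a change of -0.09 ± 0.12 (adjusted p = 0.714). The step of 0.31 ± 0.12 between 1 h and 15 min of recovery did not pass (adjusted p = 0.308), in a comparison where 1.88% of genes did. For so, the level was 15.0%, 13.8% and 12.2% after 15 min and 10.9%, 13.5% and 13.5% after 1 h, against 11.3%, 11.1% and 11.9% in controls. Only the 15-min arrays lay above all controls, and neither the change of 0.25 ± 0.14 (adjusted p = 0.255) nor that of 0.13 ± 0.14 (adjusted p = 0.650) passed. Thus 0 of 3 members were called at either time (2 and 1 with an unadjusted p under 0.05, in limma), where 6.57% of genes were called after 15 min and 2.82% after 1 h. The 75th percentile that scales the levels was 478.2 to 678.2 scanner units on the 15-min and 412.9 to 576.4 on the 1-h arrays, against 698.5 to 839.2 on the controls. Before that scaling, ato read 35.1 to 43.0 units after 15 min and 34.2 to 43.7 after 1 h, against 33.3 to 34.8 in controls, ranges that lie much closer together than the scaled levels. The summed level of 5 neuronal marker genes, in multiples of the 75th percentile, was 1.21 to 1.76 after 15 min and 1.40 to 1.85 after 1 h, against 1.93 to 2.14 in controls. A sum follows its brightest genes, and the separate markers moved in both directions. Their log2 changes ran from -0.72 to 0.48 after 15 min and from -0.30 to 0.30 after 1 h. The part of the scaling mark and of these markers in the recovery values was not tested.

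In D. montana the order of ey levels was acclimated, hardened, control, 1-h recovery and 15-min recovery, from high to low. Between neighbours in that order, the step from acclimated to hardened passed (1.53 ± 0.12, adjusted p = 9.73e-08), and the remaining steps, from 0.09 to 0.31 log2 units, did not. The order of so was acclimated, 15-min recovery, 1-h recovery, control and hardened. Its acclimated level exceeded the 15-min level by 0.46 ± 0.14 (adjusted p = 0.0241), a call that was lost without any of 4 of the 6 arrays, namely acclimated replicates 2 and 3 and 15-min replicates 2 and 3 (highest adjusted p = 0.0986). The remaining steps of so were not called. For ato the order was 1-h recovery, 15-min recovery, hardened, acclimated and control. No step between neighbours of ato was called among those fitted, and the step from 15-min recovery to hardening was not tested.

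Acclimation could also be set directly against the other cold treatments. Against hardening, 2 of 3 members were called higher in both species (24.9% of genes were called in D. montana and 33.6% in D. virilis). The changes were 0.90 ± 0.14 for so in D. montana (adjusted p = 0.000260), 1.22 ± 0.10 for ey in D. virilis (adjusted p = 5.25e-06) and 0.81 ± 0.12 for so in D. virilis (adjusted p = 0.000520), beside the 1.53 for ey above. These comparisons share the acclimated arrays with those against controls. For ato the same comparison gave -0.36 ± 0.24 in D. montana (adjusted p = 0.264) and 0.15 ± 0.09 in D. virilis (adjusted p = 0.264), neither called. The D. montana value lay between -0.66 and -0.04 with 1 array left out, and it passed without hardened replicate 1 (-0.66, adjusted p = 0.0368). Against 15-min recovery, acclimated D. montana had 2.10 ± 0.12 more ey (4.28-fold, adjusted p = 1.72e-09), and against 1-h recovery 1.79 ± 0.12 more (3.46-fold, adjusted p = 1.47e-08). Of all genes, 14.1% and 8.45% were called higher there, and 29.1% and 22.1% in either direction. With normexp on all but 21 spots the ey changes were 0.30 and 0.19 and did not pass (adjusted p = 0.1198 and 0.313).

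The so level was higher by 0.58 ± 0.14 in acclimated than in 1-h recovery flies (adjusted p = 0.00959), a call lost without acclimated replicate 2 (adjusted p = 0.0503). With both orientations averaged the so change was 0.13 against 1-h recovery (adjusted p = 0.523) and 0.13 against 15-min recovery (adjusted p = 0.498), neither called. The opposite so orientation averaged in there was above background on no array. Its probes differed by -0.31 and -0.33 against 1-h recovery. With normexp without the 21 spots the so changes were 0.19 (adjusted p = 0.258) and 0.14 (adjusted p = 0.373) in the same order, also not called. With spike-in scaling the change against 15-min recovery was 0.64 and not called (adjusted p = 0.0575). For ato the acclimated level was lower than after 1 h of recovery, by -0.70 ± 0.24 (adjusted p = 0.0445; 13.6% of genes were called lower), and this call was lost without any 1 of the 6 arrays compared, with adjusted p from 0.0501 to 0.1396. It also passed in only 3 of 8 other processing settings without normexp (highest adjusted p = 0.264, with spike-in scaling). On ato_2_0b alone that difference was 0.18. The difference from 15-min recovery, -0.60 ± 0.24, was not called (adjusted p = 0.0674). With slide as a block it had an adjusted p of 0.0184.

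**Figure D4:**
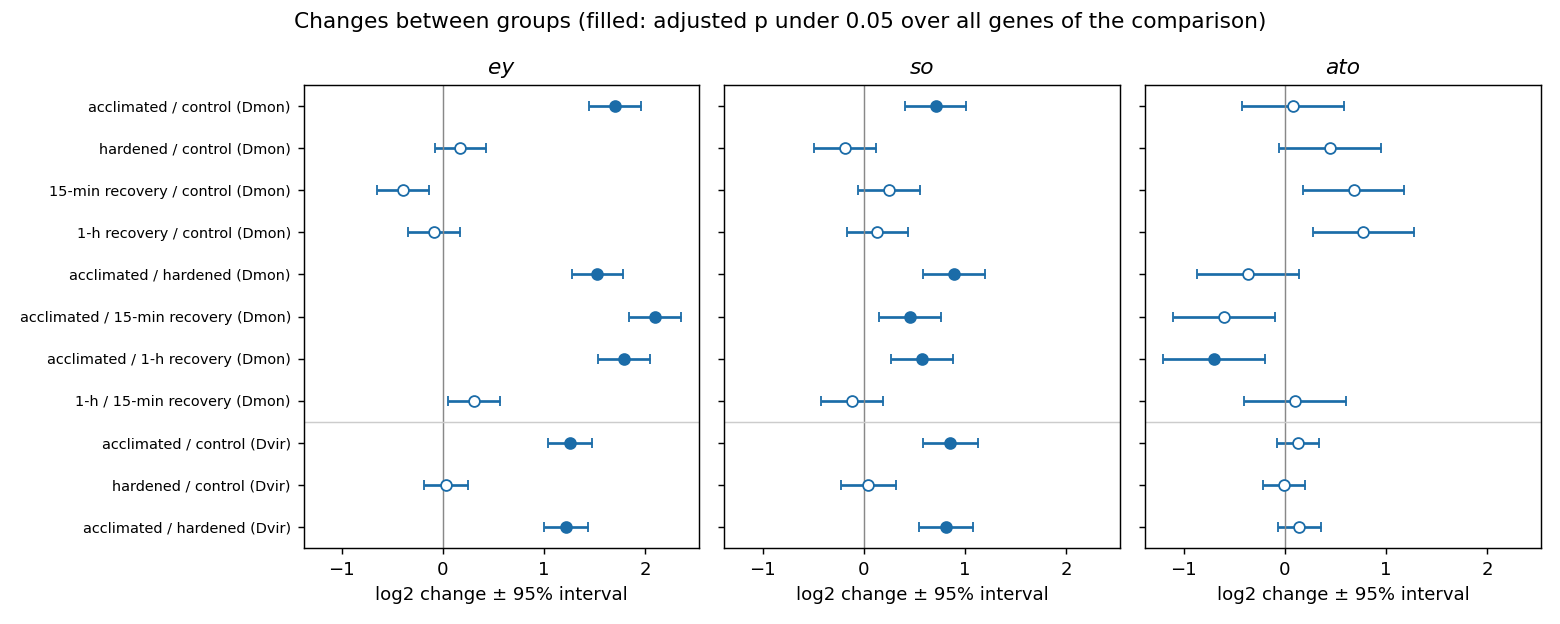
Log2 changes of ey, so and ato with their 95% intervals (x axis) in 11 comparisons between groups (y axis, first-named group minus the second; Dmon is D. montana, Dvir is D. virilis). Filled points passed an adjusted p of 0.05 over all genes of the comparison. All comparisons of acclimated flies have filled points for ey and so, and ato has 1 filled point, at -0.70.

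Of a list of 27 gene names of eye determination and differentiation (oc and otd name 1 gene), 4 were on the array: the 3 members and glass (gl), which encodes a zinc finger protein needed for photoreceptor differentiation in D. melanogaster. After acclimation gl ran against ey and so. Its change was -0.47 ± 0.14 in D. virilis (adjusted p = 0.0235), on 1 probe, with all acclimated arrays below the controls. In D. montana it was -0.52 ± 0.21 on 3 probes, also without overlap, and did not pass (adjusted p = 0.0786). All acclimated arrays lay below the controls for 30.8% of genes in D. virilis and 26.3% in D. montana. The median change of the 4 genes was 0.40 in D. montana, against 0.00057 over all genes, and 0.50 in D. virilis, against -0.058. As 3 of the 4 are the members, grouped with the rises of ey and so known, these medians describe that choice. They are no evidence for a shift of the list.

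Of a list of 28 gene names for opsins, phototransduction, visual pigment handling and other light signalling, 18 were on the array and measured in both species. The list was not limited to genes that act in photoreceptors, and ninaE and Rh1 in it name 1 gene. In acclimated D. montana 0 of them were called higher and 4 lower, among them the arrestin gene Arr2 (-0.86 ± 0.18) and the blue-light receptor gene cry (-0.83 ± 0.14), with a median of -0.21. Of all genes, 9.86% were called higher and 16.9% lower there, and nothing particular to the list is read from its counts. Acclimated D. virilis had 2 higher, the ultraviolet opsin genes Rh3 (1.11 ± 0.14) and Rh4 (1.02 ± 0.16), and 3 lower, among them cry (-0.52 ± 0.09), with a median of 0.099. Of all genes, 14.7% were called higher and 24.6% lower in D. virilis. The main opsin gene ninaE stood at 0.13 ± 0.17 in D. montana (adjusted p = 0.663) and 0.38 ± 0.17 in D. virilis (adjusted p = 0.0835). Hardening and both recovery times gave 0 calls of 18 in D. montana (1, 2 and 0 with an unadjusted p under 0.05, in limma), and hardening gave 1 in D. virilis, the carotenoid scavenger receptor gene ninaD. Of all genes, 0.469%, 6.57% and 2.82% were called in D. montana on hardening, 15-min and 1-h recovery, and 0.474% on hardening in D. virilis. Nothing particular to the list is read from these counts either.

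The summed level of the 12 photoreceptor markers, in multiples of the 75th percentile, was 96.0 to 112.4 in acclimated D. montana, against 89.2 to 125.2 in controls, and 132.3 to 154.0 in acclimated D. virilis, against 107.2 to 130.1 in controls. The sums overlapped in D. montana and did not in D. virilis. Log2 changes of the separate photoreceptor markers ran from -0.86 to 0.31 in D. montana and from -0.18 to 1.11 in D. virilis. Neuronal markers summed to 1.97 to 2.27 in acclimated and 1.93 to 2.14 in control D. montana (5 genes), and to 2.08 to 2.43 in acclimated and 2.48 to 2.78 in control D. virilis (4 genes). Separately, they changed by -0.80 to 0.38 in D. montana and by -0.78 to 0.03 in D. virilis. Mhc was 111.3 to 143.5 in acclimated and 104.0 to 114.5 in control D. montana, and 81.0 to 101.5 in acclimated and 54.3 to 68.7 in control D. virilis. Adh was 12.5 to 39.8 in acclimated and 61.8 to 77.0 in control D. montana, and 74.4 to 82.2 in acclimated and 82.0 to 104.6 in control D. virilis. The part of these tissues in the ey and so values was not tested.

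Across arrays, values were set relative to the mean control of the same species, and Pearson correlations are given as descriptions, since arrays of a group share their treatment. Over the 24 arrays ey and so correlated at 0.75 (0.64 over the 15 D. montana arrays and 0.97 over the 9 of D. virilis). For ato the correlation with ey was -0.34 (-0.47 over the D. montana arrays, 0.56 over those of D. virilis). With so it was -0.01 (-0.00082 over the D. montana arrays, 0.51 over those of D. virilis). Of 210 genes, those most like ey were ken, which encodes a zinc finger repressor (0.83), jet, the clock gene jetlag (0.83), and shi, which encodes dynamin (0.80). Most like so were the clock gene period (per, 0.93), the serotonin receptor gene 5-HT7 (0.90) and Hsc70-2, a heat shock cognate gene (0.85). For ato they were drl, a receptor kinase gene (0.91), dsf, a nuclear receptor gene (0.80), and e, the ebony gene of beta-alanine conjugation (0.79). The ato likenesses came from the D. montana arrays, since over those of D. virilis the same genes stood at 0.05, -0.29 and 0.32. In D. virilis ato rests on ato_2_0b alone and there are no recovery arrays, so probes and groups differ between these values. They are no contrast of the species, and the same holds for the correlations of ato with ey and so.

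These genes were chosen for their likeness on the same arrays, so their changes are a description of it. The acclimation changes of the genes most like ey were 0.49 in D. montana and 1.20 in D. virilis for shi, 0.47 and 0.62 for ken, and 1.11 and 0.23 for jet. Those of the genes most like so were 0.67 and 0.67 for per, 0.64 and 0.56 for 5-HT7, and 0.32 and 0.60 for Hsc70-2. After 1 h of recovery the genes most like ato differed from D. montana controls by 0.51 (drl), 0.55 (dsf) and 0.62 (e). After 15 min the differences were 0.43, 0.48 and 0.61, with arrays of dsf and e overlapping the controls.

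The size of the acclimation changes depended on the background correction. Agilent's processed signal, used throughout, has the background already subtracted. The normexp method adds an offset of 50 units, above the ey signal of 13.8 to 17.1 units in D. montana controls. Fitted on all spots, normexp gave ey 0.61 in D. montana (adjusted p = 0.993) and -0.03 in D. virilis (adjusted p = 0.982). On 4 of the 24 arrays, 21 spots in all had a local background more than 50 units above their own signal. On those 4 arrays the lower quartile of the corrected signal was 403.5 to 1625 units, against 67.9 to 74.5 on the other 20. Without the 21 spots it was 69.0 to 74.0 on the 4 arrays. The changes were then 0.61 (adjusted p = 0.00515) and 0.64 (adjusted p = 4.67e-05) for ey in D. montana and D. virilis, and 0.47 (adjusted p = 0.0127) and 0.55 (adjusted p = 0.000708) for so. The direction and the call of both genes after acclimation thus held in both species, with smaller changes.

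**Figure D5:**
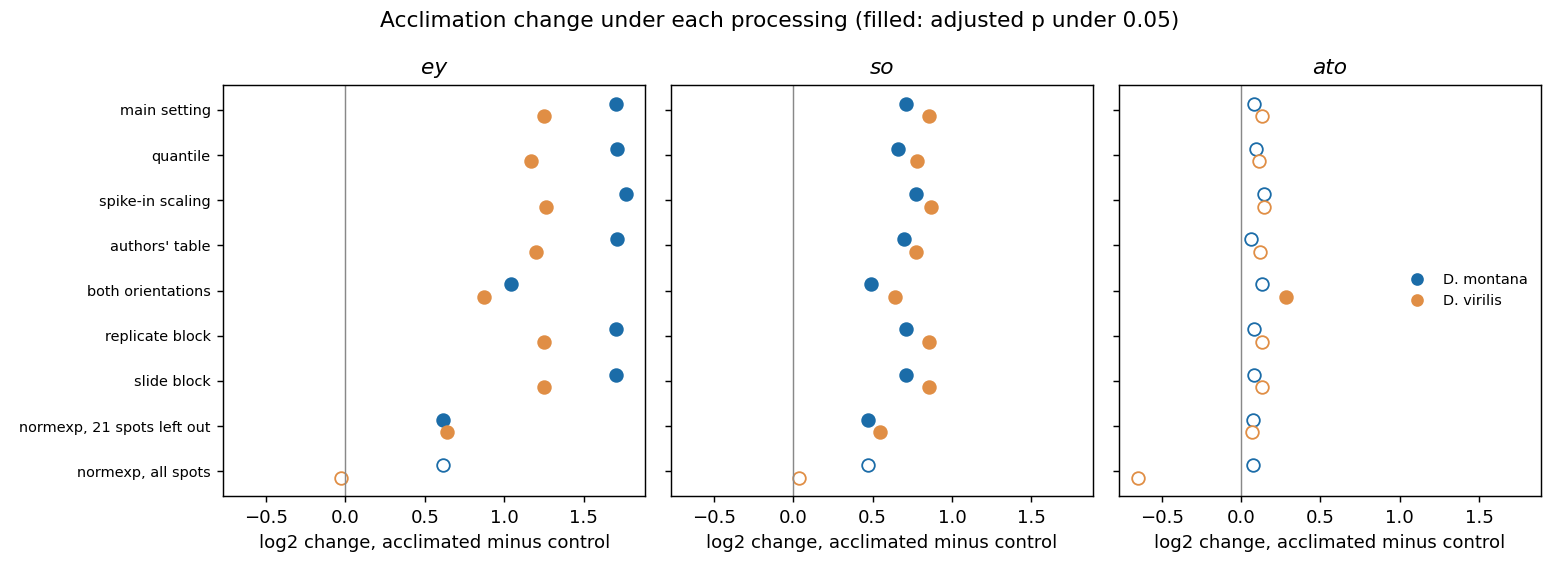
Acclimation change of ey, so and ato (x axis, log2 change of acclimated minus control flies) under 9 processing settings (y axis), in D. montana and in D. virilis. Filled points passed an adjusted p of 0.05. For ey and so, every setting but normexp on all spots gives a filled point above 0 in both species, and normexp without 21 spots gives the smaller values of 0.61 and 0.64 for ey. The 1 filled ato point is D. virilis with both orientations averaged, where the added orientation of ato_2_0b was above background on no array.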

How the data were processed

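Total RNA of 24 pools of flies was labelled with Cy3 and hybridised to a custom Agilent one-colour array of 1850 probes, each printed as 8 spots. Per the file headers, the deposited scanner files were made with Feature Extraction 10.7.1.1 and hold intensity values per spot, already background-subtracted in the processed signal. The authors' deposited table of processed intensity values, of unstated normalization, gave 1 alternative; its rows were matched by the order of probe names (lowest correlation with the scanner values 0.996), and its column medians were 69.4 to 72.7. The submitters' processing notes name limma without a role. No genome build was needed.

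Outlier-flagged and control spots were left out, spots of a probe were averaged, and log2 signals were set relative to each array's 75th percentile. A gene's value was the mean of its brighter-orientation probes, provided that some group of the fitted species had the probe well above background on each of its 3 arrays (for the joint fit, in both species). A probe counted as above background where more than 0.5 of its spots did. D. montana kept 213 genes, D. virilis 211 and the joint fit 209. Groups were compared with limma 3.58.1 in R 4.3.3 (lmFit and eBayes), all groups of a species in 1 fit, with Benjamini-Hochberg adjustment at 0.05. The script was tested on simulated data with known changes. Pools are separate by the labels, and p-values measure the spread between them.

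The genes named in the text are the members, the genes of the eye and photoreceptor lists on the array, and for each member the 3 genes of highest correlation. The members and lists were chosen with earlier results of these data known. Of 218 gene names, 158 matched a symbol of the RefSeq annotation ASM3504440v1, among them all 3 members. The mean signal per spot that normexp was planned on is not among the columns used here, so the median was taken. Replicate number and slide coincide except in the D. montana controls, where replicates 2 and 3 sat on slides 3 and 2. Deviations from group means correlated at 0.003 on average between arrays of the same replicate number (over 0.1 in 29 of 84 pairs) and at -0.001 between others. Single pairs of the same number ran from -0.47 to 0.55. Such means over all genes do not settle whether the numbers pair the samples, so blocks were fitted as alternatives. Arrays of the same slide correlated at -0.014 (over 0.1 in 23 of 84 pairs). Alternatives were other background corrections, scalings, filters and orientations, a replicate or slide block, each probe alone and leaving out each array.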

Additional observations from a re-analysis of the deposited data

Results flagged for a closer look

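The opposite orientation of the ato_2_2b pair entered only the alternative that averages both orientations. It was well above background on 4 of the 12 D. montana arrays that are not controls and on 0 of the 3 controls. The 4 were 1 hardened, 2 15-min recovery and 1 1-h recovery array, with 0 acclimated. Its highest level on the non-control arrays was -5.34 log2 units relative to the 75th percentile, against -7.00 as the highest control. Its mean stood above the controls by 0.93 after 15 min and 1.07 after 1 h of recovery. The brighter orientation, which the ato values used, stood 0.83 and 1.14 above them. Whether both orientations follow the same transcript was not tested. No other opposite-orientation probe of ey, so or ato was above background on any array. Yet the means of those probes stood above the controls as well, by 0.14 to 0.52 after 15 min and 0.37 to 0.75 after 1 h of recovery. How much of the rise of the ato_2_2b opposite orientation is shared with probes below background was not tested.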

How the results depend on the processing

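The acclimation rises of ey and so kept their direction and call in both species under every alternative except normexp on all spots, with ey in D. montana not measured when probes had to be above background on every array. Normexp on all spots turned the acclimated minus 15-min recovery change to -0.42 for ey and -0.32 for so, that against 1-h recovery to -0.76 and -0.52, and the D. virilis acclimation change of ey to -0.027. The 4 arrays with raised corrected signals, described above, were 15-min replicate 2, 1-h replicate 1, and replicate 1 of the D. virilis control and hardened groups. No acclimated array was among them, and their part in the turned signs was not tested. On ato_2_0b alone, ato was 0.18 higher after acclimation than after 1-h recovery, and the cause was not tested. Counts of genes past the threshold over all genes moved with normexp on all spots to 11 (D. montana acclimation), 0 (hardening), 1 (15-min recovery), 2 (1-h recovery), 1 (1 h against 15 min), 5 (acclimation against hardening), 10 (against 15-min recovery), 1 (against 1-h recovery), 16, 0 and 9 (D. virilis acclimation, hardening, and acclimation against hardening) and 0 and 0 for the species differences in acclimation and hardening. Spike-in scaling gave 27 for D. montana acclimation (14 higher, against 21 of 57), 5 for 15-min recovery, 38 and 25 for acclimation against 15-min and 1-h recovery (26 and 19 higher), 36 for D. virilis acclimation (23 higher), 4 for its hardening, 41 for acclimation against hardening there, and 4 and 2 for the species differences. It shifted the median of all genes by -0.18 for D. montana hardening, -0.11 and -0.15 for 15-min and 1-h recovery, 0.25, 0.18 and 0.22 for acclimation against hardening, 15-min and 1-h recovery, and -0.25 for the species difference in hardening. Quantile normalization shifted it by -0.11 for 1-h recovery and 0.13 for acclimation against it. With spike-in scaling ato stood higher in recovery by 0.57 after 15 min and 0.63 after 1 h, not called.

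With the replicate block, 27 genes passed after 15-min and 14 after 1-h recovery, and 4 on D. virilis hardening; the slide block, chosen after seeing the data, gave 30, 14 and 4. With the replicate block the adjusted p was 0.0463 for ey and 0.0356 for ato after 15 min, 0.0214 for ato after 1 h, 0.0185 for ato in acclimation against 15-min recovery and 0.0402 for the ey species difference, and no other call of the members changed. These use the replicate numbers of the sample titles; for 1-h recovery another label field numbers the pools 4 to 6. Normexp without the 21 spots, also chosen after seeing the data, gave 9 genes for 15-min recovery and 7 for 1 h against 15 min. For D. virilis hardening and the species difference in hardening, quantile normalization and the authors' table gave 2 each, and the mean of both orientations 0 each, with 17 for the species difference in acclimation. Leaving out 1 array at a time gave 34 to 45 genes for D. montana acclimation, 0 to 2 for hardening, 1 to 30 for 15-min recovery, 6 to 7 for 1-h recovery, 4 to 5 for 1 h against 15 min, 37 to 46, 40 to 71 and 32 to 43 for acclimation against hardening, 15-min and 1-h recovery, 58 to 95, 0 to 7 and 51 to 65 in D. virilis in the order above, and 15 to 29 and 0 to 3 for the species differences. Without 15-min replicate 1, ey and ato passed after 15 min (adjusted p = 0.0473 each). The ey species difference passed without D. montana control replicate 3, acclimated replicate 3 or D. virilis acclimated replicate 1 (lowest adjusted p = 0.0323). Low signal limits ey in D. montana recovery and ato in D. virilis.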
